A study of Rattus norvegicus with 8 samples.

Results

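The macrophage identity transcription factors are 8 genes, Spi1, Cebpa, Cebpb, Cebpd, Maf, Irf8, Bhlhe40 and Bhlhe41, out of 36306 genes on the array. They were taken by name: every non-control probe whose gene name in the scanner files equals that of a member, which gave 13 of 45598 probes. The cells were NR8383, a line of alveolar macrophages from a normal rat lung that grows partly attached and partly floating. Control dishes received no nanotubes, and exposed dishes received NM401, a multi-walled carbon nanotube, at 0.17 µg/mL. Both were kept for 4 h without serum. Each condition had 4 biological replicates per the labels, with 1 array each, and the comparison asks which transcripts differ between them. Both groups come from the same single cell line, and RNA was measured in whole dishes, so fewer cells making a transcript and less transcript per cell cannot be told apart.

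PU.1, the ETS-family protein made from Spi1, opens myeloid enhancers and is needed for macrophages to form. C/EBP proteins bind beside it, with C/EBPα acting early in the lineage and C/EBPβ and C/EBPδ in mature and inflamed cells, while IRF8 pairs with PU.1 on composite sites. c-MAF, the product of Maf, holds back macrophage self-renewal, and the repressors BHLHE40 and BHLHE41 support the self-renewal and identity of alveolar macrophages.

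Members are named by their probes, and several probes carry the results that follow. Maf and Cebpb are shown because their probes gave different answers for the same gene. The first 30 bases of each 60-base probe, 5′ to 3′ as deposited, are these.
Cebpb probe A_44_P348922: cagctgtcgcgagagctcagcacgctgcgg
Cebpb probe A_64_P025118: gaggcgtatgtatattttgagaaccttttc
Maf probe A_44_P400324: ctacaaggagaaatacgagaagttggtgag
Maf probe A_42_P648606: tttaaggtgatgcagattttttacagttgt
Maf probe A_44_P1115562: aaagtcttcaaagccttgtccctgcctacc

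The Bhlhe40 and Bhlhe41 promoters are shown because both proteins bind the E-box CACGTG. RefSeq (build GRCr8) gave promoters for 6 of the 8 members, all but Spi1 and Cebpd, which were not searched. In the 250 bases before the start, Bhlhe40 and Bhlhe41 each held 1 E-box, beginning 220 and 48 bases before the start. The other 4 held none, and 5.59% of 33469 promoters of this length did. The 30 bases around each are given 5′ to 3′ in the direction of the gene, with the E-box, which reads the same on both strands, in capitals.
Bhlhe40 promoter: agcgttgtccaaCACGTGagactcatgtga
Bhlhe41 promoter: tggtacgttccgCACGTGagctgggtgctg
The motifs were chosen after the expression values were seen. On both strands, none of the 6 promoters held GAGGAA (a PU.1 core, in 23.3% of promoters), the composite ETS and IRF site (GGAA and GAAA joined by NN, 2.48%), TTGCNNAA (a C/EBP motif, 9.22%) or TGCTGAC (a MAF core, 3.53%). A match or its lack describes only the letters of this window.

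Of the 7 members that could be tested, Spi1 and Bhlhe41 rose with NM401 and Maf fell at its brightest probe. Cebpb (brightest probe), Cebpd, Irf8 and Bhlhe40 did not pass, and Cebpa lay too near background to be tested. With limma at an adjusted p below 0.05, 2 members were thus higher, where 21.9% of 17444 genes were, and 1 was lower, where 35.4% were. Control and exposed arrays were fully separated, with no overlap, in 3 of these 7 members and in 53.2% of all genes. These shares are near the background, so the counts are no result about this set of genes, and single members are described instead. Values are log2 signals relative to the 75th percentile of the same array, so 0 stands for that percentile and levels of different probes are not compared.

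**Figure D1:**
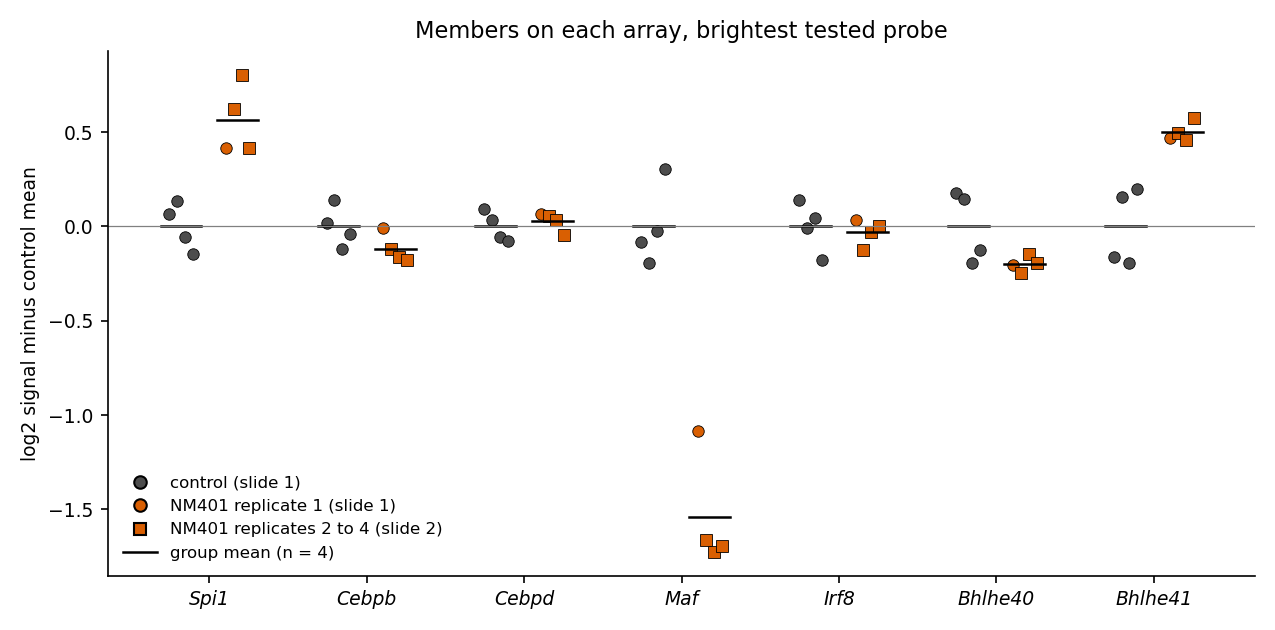
Log2 signal of the brightest tested probe of 7 members on each array, minus the mean of the 4 control arrays; grey points are control arrays, orange points NM401 arrays (squares on slide 2) and bars group means. NM401 values lie above every control value for Spi1 and Bhlhe41 and below them for Maf, where NM401 replicate 1 stands at -2.15 and replicates 2 to 4 between -2.79 and -2.73 before centring.

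Slide 1 carried the 4 controls together with NM401 replicate 1, and slide 2, scanned at another time, carried the other 3 exposed samples. Controls occupied the first row of positions and exposed samples the second, so position and group cannot be told apart. Unscaled, the 75th percentile of the signal was 958 to 1489 on control and 2537 to 2878 on NM401 arrays. After scaling, the 7 spike-in probes well above background on all arrays differed by -2.3 on the log2 scale (NM401 minus control). Set level by spike-in, every member, Maf included, would stand higher with NM401, so each direction given here is relative to the 75th percentile. Whether equal amounts of spike-in were added was not tested. The median log2 difference of all genes was -0.10, against -0.01 after quantile normalization and 0.11 after median scaling. Those scalings put 49.5% and 64.5% of calls on the higher side, against 38.2% here. Of 14 macrophage markers, 12 were well above background on all 8 arrays, among them Cd68, Csf1r and Mrc1. Marco, a scavenger receptor of alveolar macrophages, reached that level on 0 of 8 arrays. The summed macrophage signal was 145 to 154 times the 75th percentile in control and 129 to 136 in NM401. Sums stood at 0.169 to 0.209 and 0.127 to 0.180 for epithelium, 0.693 to 0.927 and 0.350 to 0.402 for lymphocytes, 2.68 to 3.56 and 2.55 to 2.62 for fibroblasts and endothelium, and 0.469 to 0.660 and 0.323 to 0.443 for neutrophils. In that order, 1 of 10, 2 of 7, 4 of 8 and 1 of 7 of these markers were well above background on all 8 arrays. Those above it were Foxj1 of epithelium, Cd3d and Nkg7 of lymphocytes, Col1a2, Pecam1, Cdh5 and Vwf of fibroblasts and endothelium, and Camp of neutrophils, while Mpo of neutrophils was above it on 4 control and 0 NM401 arrays. Epcam, Krt8 and Krt18 of epithelium, Cd3e and Cd8a of lymphocytes, Col1a1 and Kdr of fibroblasts and endothelium, and Elane of neutrophils reached it on 0 arrays. The part of these differences in the results was not tested.

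Spi1, the gene of PU.1, was 1.48-fold higher with NM401. Its probe for NM_001005892, on chromosome 3 at 75475250 to 75475309 of rat build rn4, read -0.37, -0.30, -0.49 and -0.58 on control arrays 1 to 4. On NM401 arrays 1 to 4 it read -0.02, 0.19, 0.37 and -0.02. The groups did not overlap, and the highest NM401 value came from slide 2. The log2 fold change was 0.56 ± 0.11 (SE, n = 4 per group; limma adjusted p = 0.00263), with a 95% interval of 0.32 to 0.80. With slide as a block, which leaves NM401 replicate 1 alone against the controls, it was 0.41 and was no longer called (limma adjusted p = 0.0904). Within slide 1 the adjusted p of limma was 0.11. It stayed between 0.48 and 0.61 whichever array was left out.

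Irf8, whose protein joins PU.1 on DNA, showed no detectable difference. Its brighter probe, for XM_006255737 at chromosome 19, 51117918 to 51117977, read -2.34 to -2.02 on control and -2.29 to -2.13 on NM401 arrays. The difference was -0.03 ± 0.08 (SE, limma adjusted p = 0.759), with a 95% interval of -0.21 to 0.15, so a change as large as that of Spi1 lies outside it. The second probe, for NM_001008722 and 1247 bases away, was well above background on 1 control and 3 NM401 arrays and gave -0.04 ± 0.22 (limma adjusted p = 0.889). With normexp background correction the 2 probes stood at -0.15 and -0.66 and both were called lower (limma adjusted p = 0.0433 and 0.000193). After median scaling they stood at 0.17 and 0.16, and the second at 0.30 after quantile normalization, none of them called. The change of Spi1 exceeded that of Irf8 by 0.59 on the log2 scale within the same arrays. The Spi1 minus Irf8 difference lay at 1.63 to 1.87 in control and 2.11 to 2.56 in NM401 (exact permutation p = 0.0286, two-sided, adjusted p = 0.0286 over 3 pairs, the smallest that 4 against 4 arrays allow). That p, reached by all 3 pairs, says only that the groups do not overlap. How often other pairs of genes reach it was not counted.

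Cebpa, whose product drives early myeloid differentiation, was at or near background. Its probe A_44_P1088296, on chromosome 1 at 87628721 to 87628780, was well above background on 1 of 8 arrays, control replicate 2, at -5.96. The other controls read -7.46, -6.67 and -7.24, and the NM401 arrays -8.31, -7.83, -8.47 and -8.50. The means at this probe were -6.83 in control and -8.28 in NM401. With NM401 values raised to each array's lowest signal well above background, the control mean was 1.44-fold higher. The groups did not overlap, but this ratio depends on how the scanner software subtracted background. It is no lower bound, since the control mean takes in arrays not well above background. The second probe, A_64_P025108, was below that mark on all 8 arrays, and its groups overlapped.

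Cebpb encodes C/EBPβ, which activates inflammatory and acute-phase genes, and its probes differed. The brightest, A_64_P025118 with 10 spots per array, lies on chromosome 3 at 158827761 to 158827820. It read 4.07, 4.19, 3.93 and 4.01 on control arrays and 4.04, 3.93, 3.89 and 3.87 on NM401 arrays. These values overlap, and the difference was -0.12 ± 0.07 (SE, limma adjusted p = 0.186; 95% interval -0.28 to 0.05).

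The other Cebpb probe, A_44_P348922, lies 481 bases nearer the 5′ end. It read 0.54, 0.62, 0.20 and 0.53 on control arrays and 0.94, 0.99, 1.13 and 1.02 on NM401 arrays. All NM401 values were above all control values. It rose by 0.55 ± 0.10 (SE, limma adjusted p = 0.00196), or 1.46-fold. It was no longer called with slide as a block (0.46, limma adjusted p = 0.0596) or on slide 1 alone (limma adjusted p = 0.144). Set against each other on the same arrays, the 5′ probe minus the 3′ probe lay at -3.73 to -3.48 in control and -3.10 to -2.76 in NM401. The probes thus differed in change by 0.67 on the log2 scale, a comparison chosen after their values were seen and given without a test. The direction for the gene turned with the probe rule: as a mean of both probes, Cebpb stood at 0.21 and was called higher (limma adjusted p = 0.0393). It also turned with the scaling: the brightest probe stood at 0.09 after median scaling and 0.07 after quantile normalization, neither called.

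Cebpd, the C/EBP family member known for its induction in acute inflammation, did not move detectably. Its probe for NM_013154, which the files leave unmapped, read 0.61 to 0.78 in control and 0.64 to 0.75 in NM401. The difference was 0.03 ± 0.06 (SE, limma adjusted p = 0.698) with a 95% interval of -0.11 to 0.16, the narrowest of the 7 tested members. After median scaling it stood at 0.23 and was called higher (limma adjusted p = 0.0362). At the brightest probe, the change of Cebpb was 0.15 below that of Cebpd (exact permutation p = 0.0286, adjusted p = 0.0286 over 3 pairs), but this difference was 0.00 after quantile normalization. The order also turned with the probe: the 5′ probe of Cebpb changed by 0.55, above the 0.03 of Cebpd, and was not tested against it.

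Maf showed the largest difference of the members and the widest spread between probes of a gene. The probe A_44_P1115562, for the predicted transcript variant XM_006255693, is the brightest and the nearest to the 3′ end, at chromosome 19, 45844538 to 45844597, on the minus strand. It read -1.15, -1.26, -1.09 and -0.76 on control arrays and -2.15, -2.73, -2.79 and -2.76 on NM401 arrays. Every NM401 array was below every control array, and NM401 replicate 1, on the slide of the controls, lay nearest to them. The fall was 1.54 on the log2 scale, or 2.91-fold (log2 fold change -1.54 ± 0.17, SE; limma adjusted p = 0.00021). It remained called with slide as a block (-1.09, limma adjusted p = 0.00609) and within slide 1 (limma adjusted p = 0.0417).

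The probe A_42_P648606, for the predicted variant XM_006255696, lies 13494 bases towards the 5′ end and went the other way. It read -3.63, -3.94, -4.23 and -3.86 on control arrays and -3.24, -3.24, -3.38 and -3.13 on NM401 arrays. The groups did not overlap. It rose by 0.67 ± 0.12 (SE, limma adjusted p = 0.00234), and by 0.67 with slide as a block (limma adjusted p = 0.045). With normexp background correction it stood at 0.17 and was not called (limma adjusted p = 0.113), and within slide 1 it missed the threshold (limma adjusted p = 0.108).

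The most 5′ probe of Maf, A_44_P400324 for the curated transcript NM_019318, read -5.32 to -5.09 in control and -5.12 to -4.82 in NM401. These ranges overlap, and the difference was 0.21 ± 0.09 (SE, limma adjusted p = 0.0704). The log2 fold change of Maf at A_44_P400324 turned to -0.39 with normexp and -0.31 with the deposited series values, and both were calls (limma adjusted p = 0.00739 and 0.0496). It was called higher after median scaling (0.42) and quantile normalization (0.40). On the same arrays, A_42_P648606 minus A_44_P1115562 lay at -3.15 to -2.49 in control and -1.09 to -0.38 in NM401, a difference in change of 2.21 chosen after the values were seen and given without a test. As a mean of its 3 probes, Maf stood at -0.22 and was not called (limma adjusted p = 0.074), so the fall belongs to the 3′ probe and not to all measured parts of the gene.

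**Figure D2:**
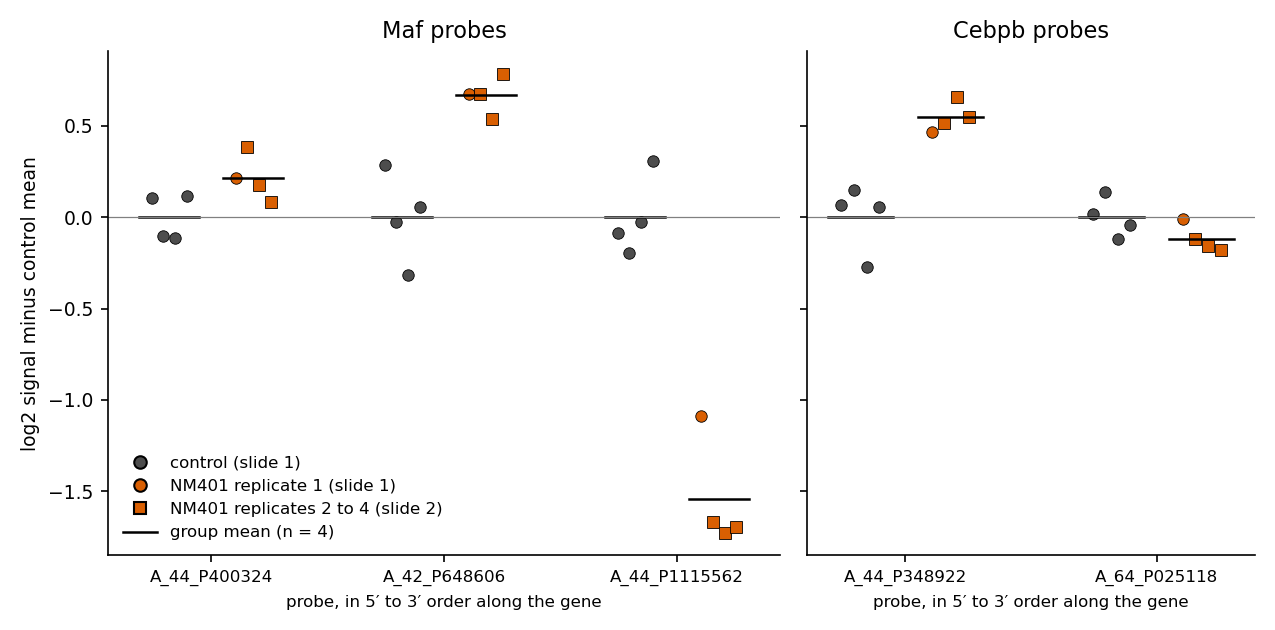
Log2 signal of each Maf and Cebpb probe on each array, minus that probe's control mean, with probes in 5′ to 3′ order; points are arrays and bars group means. At Maf the middle probe rises by 0.67 and the 3′ probe falls by 1.54, and at Cebpb the 5′ probe rises by 0.55 while the 3′ probe stands at -0.12.

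Bhlhe41 rose and its close relative Bhlhe40 did not pass. The Bhlhe41 probe, for XM_002729454, read 4.29, 4.61, 4.26 and 4.65 on control arrays and 4.92, 4.95, 4.91 and 5.03 on NM401 arrays. The groups did not overlap, and the NM401 arrays of both slides lay close together (SD 0.05, against 0.21 in control). Its log2 fold change was 0.50 ± 0.10 (SE, limma adjusted p = 0.00387), or 1.41-fold. With slide as a block it was 0.46 and lost its call (limma adjusted p = 0.0757), as on slide 1 alone (limma adjusted p = 0.169). After quantile normalization it was 0.78. The files place the probe on an unassembled piece of chromosome 4 of rn4.

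Bhlhe40, measured at chromosome 4, 144145007 to 144145066, read -1.94, -1.97, -2.31 and -2.24 on control arrays. The NM401 arrays read -2.32, -2.36, -2.26 and -2.31. Control replicates 1 and 2 stood above all others, while replicates 3 and 4 fell among or near the NM401 values. The log2 fold change of Bhlhe40 was -0.20 ± 0.09 (SE, limma adjusted p = 0.0997; 95% interval -0.41 to 0.01). It was called lower without control replicate 3 (-0.26, limma adjusted p = 0.0333), with normexp (-0.32, limma adjusted p = 0.00176) and with the deposited series values (-0.30, limma adjusted p = 0.00718), and stood at 0.01 after median scaling.

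The relatives also differed in a measure that no scaling factor of an array can move. Bhlhe40 minus Bhlhe41 lay at -6.89 to -6.23 in control and -7.34 to -7.17 in NM401, so the change of Bhlhe40 was 0.70 below that of Bhlhe41 (exact permutation p = 0.0286, adjusted p = 0.0286 over 3 pairs). It was as large in the NM401 array that shares the controls' slide, at -7.23.

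**Figure D3:**
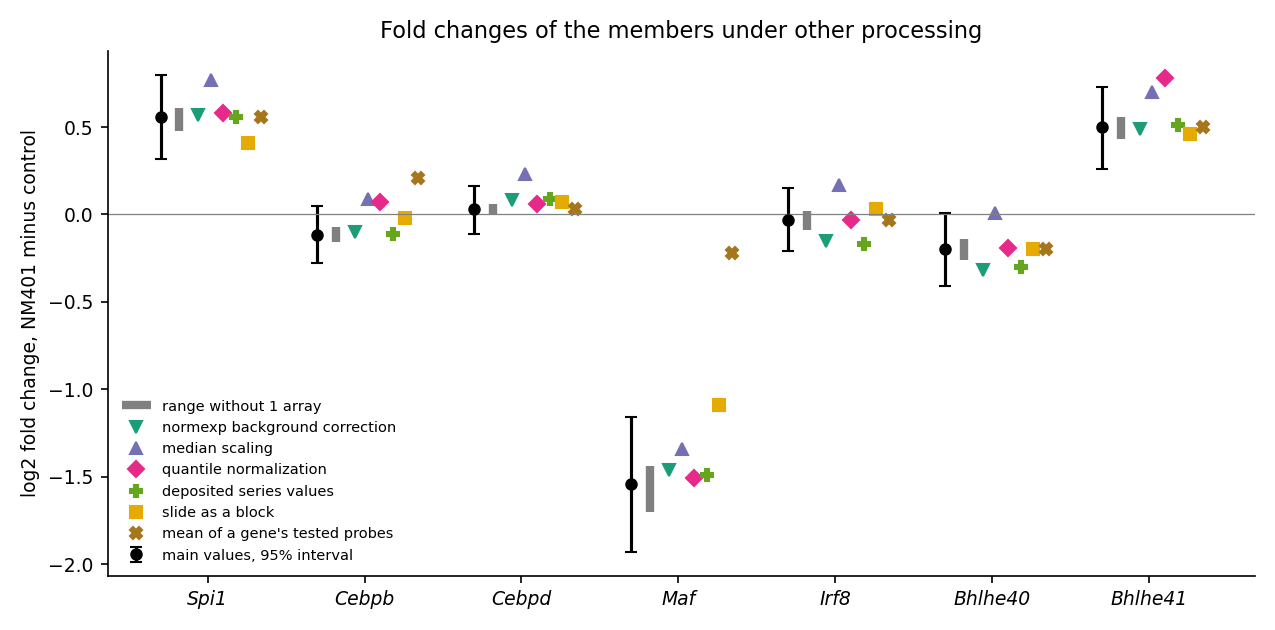
Log2 fold change of 7 members in the main values with its 95% interval, the range when any 1 array is left out, and the value under 6 other ways of processing. Spi1 stays between 0.41 and 0.77 and Bhlhe41 between 0.43 and 0.78, while Maf moves from -1.54 to -0.22 when its probes are averaged and Bhlhe40 reaches 0.01 after median scaling.

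Other genes of the same families and pathways were read from 7 lists, of whose 108 genes 88 were tested. Of these, 26 were higher and 19 lower, together 45 of 88, where 57.3% of all genes were called. By direction, 21.9% of all genes were higher and 35.4% lower, and no list was tested against these shares. C/EBP relatives and regulators had 4 of 5 tested genes higher and 0 lower, with Ddit3 not called, and a median of 0.38. Cebpg, a C/EBP without an activation domain that dimerizes with the others, rose by 1.04 ± 0.06 (SE, limma adjusted p = 0.0000349), and by 0.29 at its second probe. Trib1, a pseudokinase that steers C/EBPα to degradation, rose by 1.33 ± 0.20 (limma adjusted p = 0.000989) and by 0.40 with normexp. Cebpz and Cebpe rose by 0.38 ± 0.06 and 0.29 ± 0.05, and Cebpe lost its call with slide as a block (0.25, limma adjusted p = 0.0612).

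MAF and BACH relatives had 2 of 6 higher, 1 lower and 3 not called, with a median of 0.25. Maff rose by 0.38 ± 0.08 but stood at 0.01 with normexp. Mafg was at 0.19 ± 0.08 and not called (limma adjusted p = 0.0642), though its second probe was (0.21 ± 0.06). Nfe2, which pairs with small MAF proteins, fell by 1.84 ± 0.35 (limma adjusted p = 0.00297), with 1 of 4 NM401 arrays well above background, and missed the threshold with slide as a block (limma adjusted p = 0.118).

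IRF relatives and BATF partners had 4 of 9 higher and 2 lower (Irf2 and Irf9), with a median of 0.30. Irf9, at -0.37 ± 0.08, lost its call after median scaling (-0.17), with slide as a block and within slide 1. Irf3, which transmits viral sensing to interferon genes, rose by 0.62 ± 0.06 (limma adjusted p = 0.000111). Irf4, like IRF8 a partner of PU.1, rose by 0.36 ± 0.07 (limma adjusted p = 0.0032) and missed the threshold with slide as a block (limma adjusted p = 0.0637). Irf2 fell by 0.43 ± 0.07 at its brightest probe, while a second probe, dim in all 4 controls, was called in the other direction (1.32 ± 0.39). Batf, a partner of IRF4 and IRF8, rose by 1.02 ± 0.20, but only 1 control array was well above background there, and it stood at -0.16 with normexp and -0.06 with the deposited series values.

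ETS relatives of PU.1 had 4 of 13 higher and 3 lower, with a median of -0.07. Elf4 fell by 0.53 ± 0.05 at its brightest probe (limma adjusted p = 0.000148) and stood at -0.02 at a second. Elk3, Gabpa and Elf2 rose by 0.38 ± 0.09, 0.37 ± 0.09 and 0.31 ± 0.08, and the last 2 missed the threshold with slide as a block (limma adjusted p = 0.115 and 0.154). Among other transcription factors of myeloid cells, 5 of 17 were higher and 2 lower (Id2 and Pparg, the second named after its value was seen), with a median of 0.20. Id1, an inhibitor of bHLH dimers, rose by 0.96 ± 0.09 (limma adjusted p = 0.000121), while Id2, of the same family, fell by 0.65 ± 0.06 (limma adjusted p = 0.000147). Klf4 rose by 0.40 ± 0.06 and Cbfb, the partner of RUNX proteins, by 0.31 ± 0.06. Pparg, the nuclear receptor that shapes alveolar macrophages, fell by 0.40 ± 0.09 (limma adjusted p = 0.00751). It lost its call after quantile normalization (-0.23), after median scaling (-0.19), with slide as a block and within slide 1.

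The circadian clock loop, on which BHLHE40 and BHLHE41 act as repressors, had 1 of 12 higher and 3 lower, with a median of -0.07. Per2 rose by 1.48 ± 0.15, or 2.79-fold (limma adjusted p = 0.000169), and by 0.71 with normexp. Dbp, a clock output gene, fell by 0.70 ± 0.10 (limma adjusted p = 0.000678). Csnk1e and Csnk1d fell by 0.17 ± 0.05 and 0.16 ± 0.05, and after median scaling they stood at 0.03 and 0.05. A second probe of Csnk1e was called in the other direction, at 0.42 ± 0.13.

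Myeloid genes with PU.1-driven promoters or enhancers, to set beside Spi1, had 6 of 26 higher, 8 lower and 12 not called, with a median of -0.04. These counts are near the shares of all genes, 21.9% higher and 35.4% lower, and are no result about this list. Msr1, a scavenger receptor, rose by 1.06 ± 0.11 (SE, limma adjusted p = 0.00016) and at a second probe by 1.15 ± 0.06. Tyrobp, an ITAM adaptor, rose by 0.35 ± 0.05 at its brightest probe and fell by 1.00 ± 0.09 at another. Cd68, a lysosomal glycoprotein of macrophages, fell by 0.36 ± 0.06 and Laptm5, a lysosomal membrane protein of blood cells, by 0.61 ± 0.10. Laptm5 lost its call with slide as a block (-0.48, limma adjusted p = 0.0609). After quantile normalization Cd68 stood at -0.08 and Laptm5 at -0.16, neither called, and this list had 8 higher and 4 lower. The highest value of the list, 1.49 for the surface receptor gene Adgre1, rests on a probe that only 1 control array measured above background, and stood at -0.07 with normexp. After median scaling the list had 11 higher and 3 lower, so its balance of directions depended on the scaling.

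**Figure D4:**
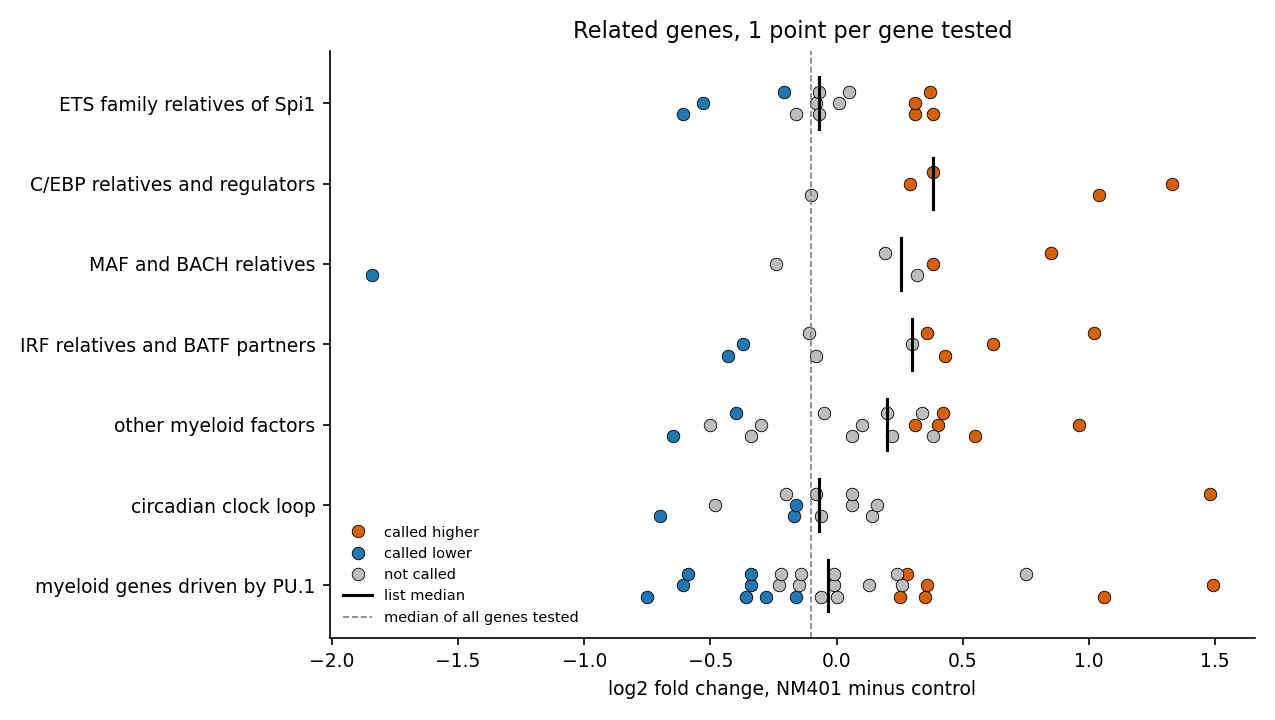
Log2 fold changes of 88 tested genes of 7 lists, 1 point per gene, coloured by the limma call at an adjusted p below 0.05, with each list's median as a bar and the median of all genes tested (-0.10) as a dashed line. C/EBP relatives lie from -0.10 to 1.33, with 4 of 5 called higher, where 21.9% of all genes were. The PU.1-driven genes spread from -0.75 to 1.49 around a median of -0.04, with Adgre1 at 1.49 measured above background on 1 of 4 control arrays.

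For each tested member, the genes with the most similar values were found by the root-mean-square distance of log2 values over 8 arrays, each gene centred on its own mean, among 10843 genes with a symbol. Nearest to Spi1 were Ajuba (0.063) and Arid4b (0.083), and nearest to Bhlhe41 were Notch1 (0.059) and Pwwp2b (0.067). The 3′ probe of Maf lay nearest to Gprin3 (0.116) and Ifitm1 (0.127), which differed by -1.59 and -1.64. The distance grows with a member's own spread, so distances are not compared between members. Nearest to Cebpb were Nme7 (0.025) and Abi2 (0.028), and to Cebpd Tef (0.028) and Tut1 (0.030). For Irf8 they were Zbtb7a (0.040) and Bmpr2 (0.042), and for Bhlhe40 Sgpp1 (0.030) and Mx1 (0.056). These distances describe 8 arrays of 2 groups and carry no test.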

How the data were processed

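Per the labels, Cy3-labelled RNA of 8 samples was hybridised to 1-colour Agilent arrays. The authors deposited spot intensity values from Agilent Feature Extraction 11.0.1.1, background-subtracted and multiplicatively detrended, per the file headers. Their series table instead equals the median spot intensity (503808 of 503808 values). It is thus linear, without background subtraction, and neither scaled nor centred. Here spots marked as outliers were left out, log2 processed signal was reduced by each array's 75th percentile of non-control spots, and spots of a probe were averaged. A probe was tested where at least 4 of 8 arrays marked it well above background (21684 probes), and a gene was its brightest tested probe (17444 genes). No spot was saturated. RefSeq (assembly GRCr8, names only) named 21109 of 45598 probes. Groups were compared with limma 3.58.1 (lmFit, eBayes) in R 4.3.3, adjusted by Benjamini-Hochberg over all probes. The SE and interval come from that fit. It was also checked on simulated data, which held no effect of slide or position, so the check does not cover these.

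Of 5 pairs of members, the 2 with Cebpa could not be formed. Named genes were the members, up to 4 genes per list with the smallest p, and 2 nearest genes per member. Ddit3, Irf9, Pparg, Adgre1, Lmo2, Lcp1 and Lyz2 were added after their values were seen. The values of 1 gene that this rule names are not reported here. The members and lists were chosen with earlier results of these data known, and the promoter motifs and probe comparisons after the values were seen. Alternatives were normexp (offset 50), median and quantile scaling, the deposited series values, other filters, the mean of a gene's probes, a robust prior, slide or replicate number as a block, slide 1 alone and leaving out each array. The number of arrays limits the precision.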

Additional observations from a re-analysis of the deposited data

Results flagged for a closer look

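At the 3′ probe of Maf (A_44_P1115562), NM401 replicate 1 read -2.15, while the other 3 NM401 arrays read -2.79 to -2.73, a gap of 0.899 of the group's range. It is the NM401 array on the slide of the controls, and the part of the slide in this gap was not tested. Among 32 groups of 4 values checked in this way 1 was marked, where chance marks about 1 in 20.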

How the results depend on the processing

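The fall of Maf and the rises of Spi1 and Bhlhe41 kept their direction in all 19 alternatives, with ranges of -1.70 to -0.22, 0.41 to 0.77 and 0.43 to 0.78. For Maf, only the mean of a gene's probes took in probes other than the 3′ one. Those stood at 0.67 (called higher) and 0.21 (not called) in the main values. With slide as a block and within slide 1, Spi1 (0.41 in both, limma adjusted p = 0.0904 and 0.11) and Bhlhe41 (0.46 in both, limma adjusted p = 0.0757 and 0.169) missed the threshold, so 0 members were called higher. The mean of a gene's tested probes gave -0.22 for Maf (limma adjusted p = 0.074) and 0.21 for Cebpb (limma adjusted p = 0.0393), which turned its direction, so 0 members were called lower. Cebpd was called after median scaling (0.23). In the same scaling Cebpb (0.09), Irf8 (0.17) and Bhlhe40 (0.01) turned to positive values without a call. Cebpb also did after quantile normalization (0.07). With normexp and with the deposited series values, Irf8 (-0.15 and -0.17) and Bhlhe40 (-0.32 and -0.30) were called lower, so 3 members were lower. Without any 1 array, Bhlhe40 ranged from -0.26 to -0.14, and 1 to 2 members were called lower, 2 only without control replicate 3. With no filter on dim probes Cebpa was tested and called lower (-1.45), which made 2. At the brightest Cebpb probe, the change of Cebpb minus change of Cebpd was -0.18 with normexp (exact permutation p = 0.0571). It was 0.00 after quantile normalization (exact permutation p = 0.943, with the sign turned). The other 2 pairs kept their direction in every setting run for them, and their call with normexp, quantile normalization and the series values. Leaving out 1 array gave sizes only, since no test was run on them, and no slide fit was run for pairs.

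Of the listed genes, 41 were higher and 8 lower after median scaling, 10 lower after quantile normalization, 17 higher and 7 lower with slide as a block, and 6 and 2 within slide 1. Among the named probes and genes, directions turned for the 5′ Maf probe (-0.39 with normexp, -0.31 with the series values), Batf (-0.16 and -0.06 likewise), Csnk1e (0.03) and Csnk1d (0.05) after median scaling, and Irf2 (0.45), Csnk1e (0.22) and Tyrobp (-0.33) as means of their probes. The dimmer Irf8 probe turned to 0.16 after median scaling and 0.30 after quantile normalization, neither called. Of other called list genes, Adgre1 (-0.07) and Lmo2 (-0.02) turned with normexp, Lcp1 (0.09) with quantile normalization, and Lyz2 with quantile normalization (0.28) and median scaling (0.04). Of 27 named list genes called, 18 kept their call with slide as a block and 7 within slide 1, where NM401 replicate 1 is assumed to vary like the controls. The causes were not tested.

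Control and NM401 samples with the same replicate number correlated at 0.193, -0.00278, 0.0838 and -0.0719 in their deviations, so the numbers do not pair them. With the replicate block, Spi1 stood at 0.56 (limma adjusted p = 0.00831), Maf at -1.54 (limma adjusted p = 0.00305) and Bhlhe41 at 0.50 (limma adjusted p = 0.00726), and no call of a member changed.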
